A study of Arabidopsis thaliana with 8 samples.

Results

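The 8 best characterised cellulose synthase catalytic subunit genes of Arabidopsis thaliana (CESA1 to CESA8), the COBRA gene (COB) and the KORRIGAN gene (KOR1) were followed in roots exposed to mebendazole (MBZ). These 10 genes were selected by their locus identifiers from the 33602 genes of the count table, and all 10 were present. Roots came from 14-day-old Col-0 seedlings, the standard laboratory accession, grown on medium containing the solvent dimethyl sulfoxide (DMSO). For the MBZ group (4 libraries), seedlings spent 4 h on medium to which 10 µM mebendazole had been added, an anthelmintic whose target in worms is tubulin. The control group (4 libraries) had been moved to medium with DMSO alone, so that both groups shared the solvent. The labels do not say whether libraries of a group came from separate plants or plates, so p-values measure the spread between these libraries, which may be technical.

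Cellulose is made at the plasma membrane by rosette-shaped complexes of CESA proteins, which move along cortical microtubules as they extrude glucan chains. CESA1, CESA3 and one of the CESA6-like subunits (CESA2, CESA5 or CESA6) form the complex of the primary wall in growing cells, whereas CESA4, CESA7 and CESA8 form that of the secondary wall in xylem vessels and fibres. COB is a membrane-anchored glycoprotein needed for oriented cellulose deposition in expanding root cells, and KOR1 is a membrane-bound endoglucanase that acts with the complex.

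The libraries held between 38042437 and 54818801 counts, and no member had fewer than 1379 counts in any library, so that 3 counts, the limit of detection used here, lay far below every member's level. The first principal component of log2 CPM (counts scaled to library size) separated the groups with 92.2% of the variance. On the second (1.43%), DMSO replicate 4, the shallowest library, lay apart. Root markers were present, among them PYK10 at a mean of 13995 CPM and CASP1, an endodermal gene, at 139 CPM in DMSO. The 6 markers of green shoot tissue summed to between 86.4 and 88.4 CPM in DMSO and between 69.8 and 73.0 CPM in MBZ, with LHCB2.2 at 1.07 CPM in DMSO.

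Short upstream stretches are shown because the secondary wall genes are known targets of xylem transcription factors that bind defined DNA words. The 300 bases before the annotated start of each gene in RefSeq assembly TAIR10.1 were searched on both strands for 4 motifs. TERE, the tracheary element motif, occurred in CESA4 alone among the 10 genes and in 0.43% of 27443 protein-coding promoters. SMRE, a motif bound by MYB46 and MYB83 (ACC, then A or T, then A, then A or C, then T or C), occurred in 5 of the 10 genes (CESA1, CESA4, CESA5, CESA8 and COB) and in 33.9% of promoters. The ethylene-related GCC box (GCCGCC; 2.26% of promoters) and the brassinosteroid-related BRRE (CGTGTG or CGTGCG; 7.64%) matched 0 of the 10. For CESA4, CESA8, CESA1 and CESA5, each line gives 30 bases, 5′ to 3′ on the strand of the gene, with the match in capitals, and SMRE matches of CESA4 and CESA8 lie on the opposite strand. CESA5 held a further SMRE match, from 296 to 290 bases before its start, which is not shown, nor is that of COB.
CESA4, TERE, chr5:17714360-17714389, plus strand: tacataataaCTTGAAAGCTActctaagtt
CESA4, SMRE, chr5:17714298-17714327, plus strand: aacatagccagATTTGGTaaagtttataag
CESA8, SMRE, chr4:10317147-10317176, minus strand: ttcttatagaaAGTTGGTgattgaaaagat
CESA1, SMRE, chr4:15646930-15646959, minus strand: taacaattagaACCTAATcaacactagtta
CESA5, SMRE, chr5:3072736-3072765, plus strand: ttaacgaaattACCAACTgttaagacaaaa
The TERE word of CESA4 lies from 20 to 10 bases before its annotated start, in a stretch that also belongs to the neighbouring gene AT5G44020. SMRE thus occurred in members of both wall classes, and CESA7 held no match to any of the 4 motifs in this window. The submitters' processing notes name build TAIR10, and the gene models behind the deposited values were shorter than those of TAIR10.1 for each of the 10 genes, so annotated starts may differ between them.

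The members covered a wide range of levels. To compare genes per unit length, the authors' RPKM values (reads scaled to gene length and library size) were used. In DMSO, KOR1 was highest at 250.1 ± 1.54 RPKM (SD, n = 4), followed by CESA3 at 168 ± 0.325 and CESA1 at 166 ± 0.402 RPKM. COB stood at 147 ± 2.08 RPKM. CESA6 and CESA2, alternative partners of CESA1 and CESA3, followed at 80.6 ± 0.617 and 45.9 ± 0.357 RPKM. The secondary wall genes lay below these, with CESA4 at 23.8 ± 0.568, CESA7 at 16.3 ± 0.392 and CESA8 at 12.5 ± 0.430 RPKM. CESA5, a CESA6-like gene best known from seed coat mucilage, stood among them at 15.7 ± 0.393 RPKM. Neighbours in this order did not overlap between libraries, except CESA7 and CESA5. The deposited values imply 3477 bases for CESA5 and 3348 for CESA7, against 4138 and 3403 exonic bases in TAIR10.1. The order and this overlap are given for the implied lengths only.

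**Figure D1:**
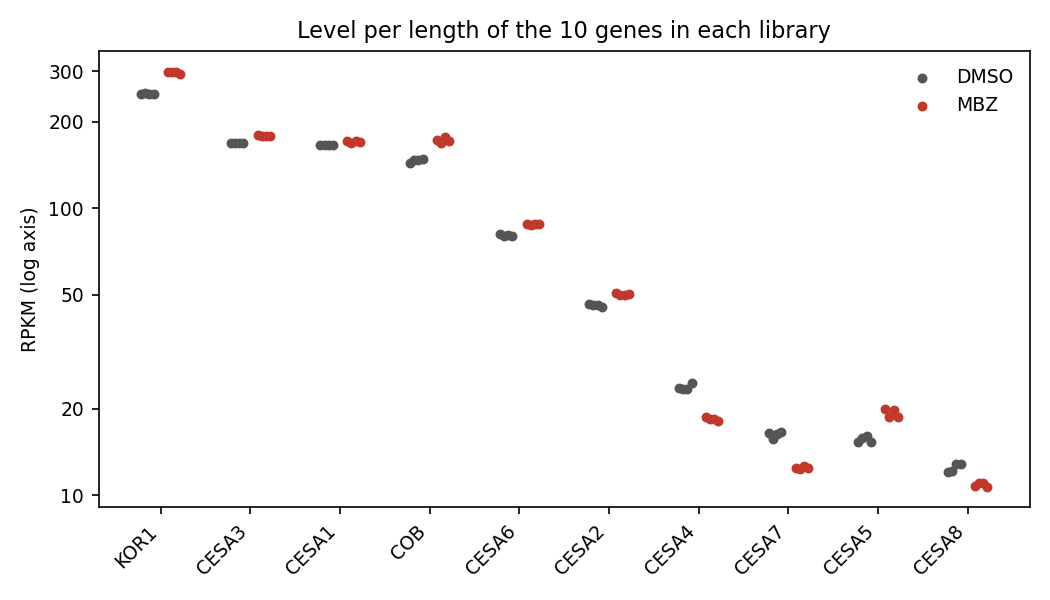
RPKM (log axis) of the 10 genes in each library, ordered by the DMSO mean, with grey points for the 4 DMSO and red points for the 4 MBZ libraries. KOR1 was the highest gene in both groups. CESA5 lay below CESA4 in DMSO and narrowly above it in MBZ, an order that rests on the gene lengths behind these RPKM values.

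By the deposited RPKM, the order changed at 2 places in MBZ. CESA5 reached 19.3 ± 0.688 RPKM and CESA4 fell to 18.4 ± 0.250 RPKM (SD, n = 4). CESA5 thus lay above CESA7 and, narrowly, above CESA4 (lowest CESA5 library 18.734, highest CESA4 library 18.728 RPKM). The deposited values imply lengths of 3477 bases for CESA5 and 3357 for CESA4, against 4138 and 3771 exonic bases in TAIR10.1. RPKM with the TAIR10.1 lengths was not computed, so this order is given for the deposited lengths only. COB, at 172 ± 3.32 RPKM, came level with CESA1, at 170.4 ± 1.42 RPKM, and the libraries of these genes overlapped. This too is given for the deposited lengths only, 1827 bases for COB and 3889 for CESA1, against 2309 and 4221 in TAIR10.1. KOR1 remained highest at 296.7 ± 2.63 RPKM and CESA8 lowest at 10.9 ± 0.167 RPKM.

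The comparison of MBZ with DMSO asked how transcripts for cellulose synthesis respond within 4 h of the drug. The 5 primary wall CESA genes, COB and KOR1 rose (CESA1 not past the threshold with upper-quartile scaling), and the 3 secondary wall CESA genes fell. The changes ran from 3.88% for CESA1 to 24.96% for CESA5 upward, and from -11.5% for CESA8 to -22.9% for CESA7 downward. All 10 members passed an adjusted p of 0.05 in edgeR's quasi-likelihood test, against 66.5% of the 20867 genes tested (32.9% higher and 33.6% lower). In all 10, the CPM values of the groups did not overlap, which held for 59% of genes tested (29.4% higher and 29.5% lower in MBZ). The sizes were ordinary in these data: log2 fold changes of the members lay between the 15.5th and the 85.1th percentile of all genes tested, whose quartiles were -0.21 and 0.18. In a test against a 1.5-fold change, 0 of the 10 passed.

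**Figure D2:**
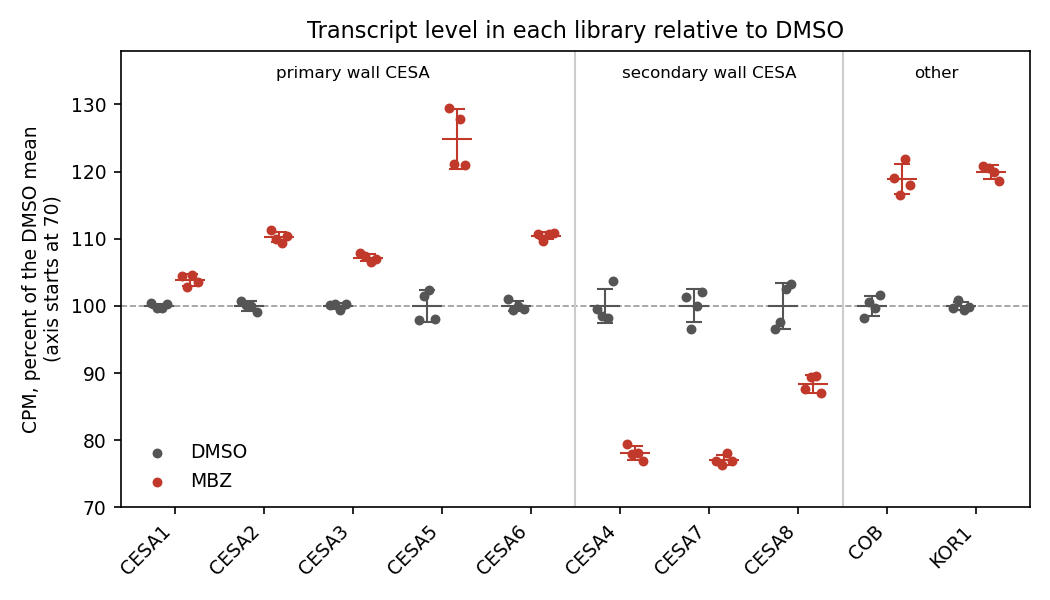
CPM in each library as a percent of the gene's DMSO mean, with the axis starting at 70, points for the 4 libraries of each group, and horizontal marks and bars for the mean and SD. Every MBZ point of CESA1, 2, 3, 5, 6, COB and KOR1 lies above, and every MBZ point of CESA4, 7 and 8 below, the DMSO points of that gene.

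Of the primary wall genes, CESA1 and CESA3 encode the obligate subunits. CESA1 (AT4G32410) was measured at 644, 639.8, 639 and 643 CPM in DMSO replicates 1 to 4 and at 670.2, 659, 671 and 665 CPM in MBZ replicates 1 to 4. The groups did not overlap, yet the log2 fold change was only 0.05 (SE 0.01, adjusted p 0.000246 by edgeR). With upper-quartile scaling it was 0.03 and no longer passed (edgeR adjusted p 0.0872), so the call for CESA1 depended on the scaling. CESA3 (AT5G05170) stood at 606, 607, 602 and 607 CPM in DMSO and at 653, 650.1, 645.5 and 648 CPM in MBZ. All 4 MBZ libraries were above the DMSO libraries, with a log2 change of 0.10 (SE 0.01, adjusted p 3.73e-10 by edgeR).

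The CESA6-like genes, whose products compete for the same position in the primary wall complex, rose more. CESA5 (AT5G09870) was at 53.1, 55.0, 55.5 and 53.2 CPM in DMSO and at 70.1, 65.6, 69.3 and 65.6 CPM in MBZ. In the MBZ group, replicates 1 and 3 were above replicates 2 and 4, and all 4 were above DMSO. Its log2 change of 0.32 (SE 0.03, adjusted p 1.34e-19 by edgeR) was the largest rise among the members. CESA6 (AT5G64740) was at 331, 325, 327 and 326 CPM in DMSO and at 362, 359, 362 and 363 CPM in MBZ, a log2 change of 0.14 (SE 0.02, adjusted p 3.00e-14 by edgeR). CESA2 (AT4G39350) was at 175, 175, 174 and 173 CPM in DMSO and at 194, 192, 190.4 and 192 CPM in MBZ, with a log2 change of 0.14 (SE 0.02, adjusted p 1.75e-11 by edgeR). The replicates of both genes lay close together within each group. Exact shared sequence between these paralogs was rare: 1 of 3535 exonic stretches of 50 bases in CESA6 also occurred in CESA5. None of those in CESA2 occurred in another gene. Mismatches and stretches across exon junctions were not considered, and how reads were assigned was not tested. The read length is not given in the sources used here.

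Within the summed RPKM of the 5 primary wall genes, shares shifted slightly. CESA1 took 34.8% ± 0.0742 in DMSO and 33.7% ± 0.158 in MBZ, and CESA5 took 3.29% ± 0.0825 and 3.82% ± 0.118 (SD, n = 4 each). CESA3, at 35.3% and 35.2%, overlapped between the groups.

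The secondary wall genes all went down. CESA4 (AT5G44030, chr5:17714390-17719723, plus strand, RefSeq TAIR10.1) was at 79.3, 78.5, 78.1 and 82.6 CPM in DMSO and at 63.3, 62.0, 62.1 and 61.2 CPM in MBZ. Every MBZ library was below every DMSO library, and the log2 fold change was -0.35 (SE 0.02, adjusted p 5.16e-24 by edgeR). CESA7 (AT5G17420, chr5:5736630-5741500, minus strand) was at 55.1, 52.5, 54.4 and 55.5 CPM in DMSO and at 41.8, 41.5, 42.5 and 41.8 CPM in MBZ. It showed the largest fall among the members, with a log2 change of -0.38 (SE 0.03, adjusted p 9.47e-22 by edgeR). CESA8 (AT4G18780, chr4:10312624-10316886, minus strand) fell least, from 38.7, 39.1, 41.1 and 41.4 CPM in DMSO to 35.1, 35.8, 35.9 and 34.9 CPM in MBZ. Its log2 fold change was -0.18 (SE 0.03, adjusted p 6.47e-07 by edgeR). DMSO replicate 4 had the highest value of its group for all 3 genes. Without it the log2 fold changes were -0.34 for CESA4, -0.37 for CESA7 and -0.16 for CESA8, and all 3 still passed.

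Neighbouring genes touch the secondary wall genes. In the TAIR10.1 annotation, 481 exonic bases of CESA8 are shared with MYB98 on the opposite strand, and MYB98 had at most 2 counts in any library. A further 81 exonic bases of CESA8 are shared with the long noncoding RNA gene AT4G06845 on the opposite strand. This gene also overlaps the upstream window of CESA8 and is absent from the deposited counts, so its level could not be analysed. CESA4 shares 17 exonic bases with AT5G44020 on the same strand, a gene whose log2 fold change was -1.13. AT5G44020 was at a mean of 508 CPM in DMSO and 232 CPM in MBZ, against 79.6 and 62.2 CPM for CESA4. With AT5G44040 on the opposite strand (0.08, edgeR adjusted p 0.147), CESA4 shares 65 bases. Among the primary wall genes, CESA3 shares 74 bases with RUL1 (0.16) and CESA1 shares 28 with SHS1 (0.30), each on the opposite strand. KOR1 shares 29 bases with AT5G49710 on the opposite strand (0.04, edgeR adjusted p 0.198). CESA7 shares 66 bases with AT5G17410 on the opposite strand (-0.06, edgeR adjusted p 0.152). Strand setting of the counting is not given in the sources used here, so reads from stretches shared with opposite-strand genes cannot be assigned. AT5G44020 lies on the strand of CESA4, so a strand setting would not separate reads from their shared stretch.

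Summed over each class, the contrast was in opposite directions. The 5 primary wall genes summed to 477, 476, 477 and 475 RPKM in DMSO and to 509, 504, 507 and 505 RPKM in MBZ, a rise of 6.28% in the mean. The 3 secondary wall genes summed to 52.3, 51.4, 52.7 and 54.2 RPKM in DMSO and to 41.9, 41.7, 42.1 and 41.3 RPKM in MBZ, a change of -20.7%. The secondary wall genes therefore made up 9.95% ± 0.205 of all CESA RPKM in DMSO and 7.62% ± 0.0499 in MBZ (SD, n = 4 each), with no overlap. Changes of single genes came from TMM-scaled counts, another scale than these RPKM sums. In TMM-scaled CPM, the primary sum went from between 1798 and 1809 in DMSO to between 1925 and 1949 in MBZ. The secondary sum went from between 170.1 and 179.5 to between 137.9 and 140.5 CPM. The median log2 fold change was 0.14 for the primary and -0.35 for the secondary wall genes, a difference of -0.50, against a median of 0.00 over all genes tested. No p is given for these sums, since the members were chosen with results of these data known. In whole roots, fewer cells of a type and less RNA per cell cannot be told apart.

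**Figure D3:**
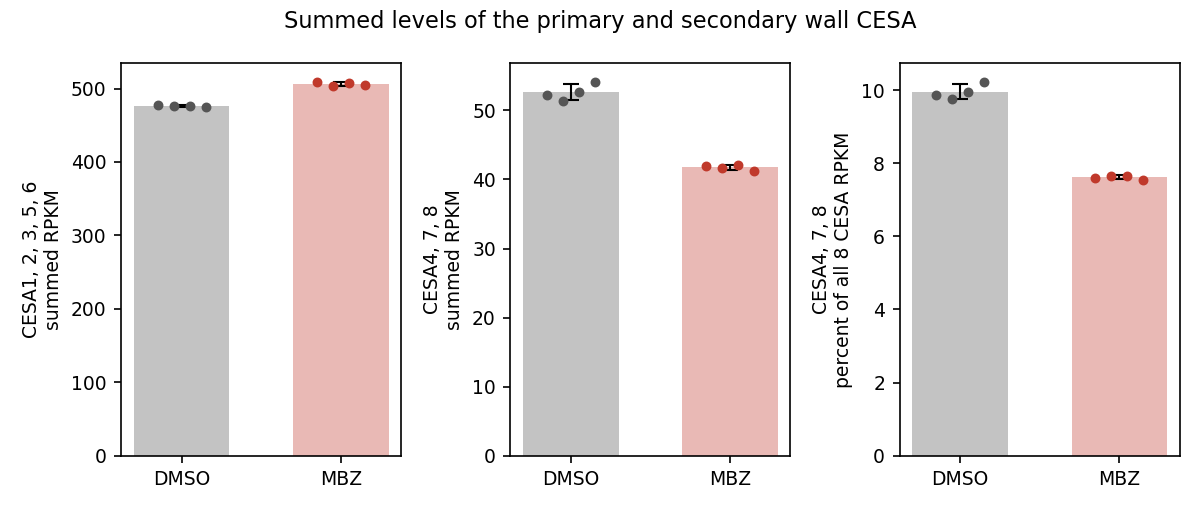
Summed RPKM of the primary wall CESA genes (left), of the secondary wall CESA genes (middle) and the secondary wall share of all CESA RPKM in percent (right), with bars for the mean, error bars for the SD and points for the 4 libraries of each group. The share drops from 9.95% to 7.62% with no overlap between groups.

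COB and KOR1 moved with the primary wall genes. COB (AT5G60920) was at 262, 268, 266 and 271 CPM in DMSO and at 317, 311, 325 and 315 CPM in MBZ. The groups were well apart, and the log2 fold change was 0.25 (SE 0.02, adjusted p 2.50e-25 by edgeR). KOR1 (AT5G49720) was at 582, 589, 580.3 and 583 CPM in DMSO and at 705, 704, 699.7 and 692 CPM in MBZ. With a log2 change of 0.26 (SE 0.01, adjusted p 1.10e-31 by edgeR), it had the smallest p-value of the 10 members.

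Their relatives did not follow them as a family. KOR2 fell from 68.4 ± 0.744 to 55.0 ± 1.03 CPM (mean ± SD over 4 libraries per group), amounting on the log2 scale to -0.31 (edgeR adjusted p 5.70e-20), and the weakly expressed KOR3 fell by 0.68 on the log2 scale (edgeR adjusted p 0.000665). In KOR3, DMSO replicate 4 stood at 2.23 CPM against 1.13 to 1.42 CPM in the other DMSO libraries, and without it the log2 fold change was -0.45 (edgeR adjusted p 0.0296). Of 7 tested COBRA-like genes, 3 rose and 4 fell, with a median of -0.13. Counts of this kind, here and in the lists below, stand beside 32.9% of all genes tested that rose and 33.6% that fell. COBL4, which acts in secondary wall cellulose deposition, fell from 18.6 ± 0.450 to 14.3 ± 0.491 CPM (mean ± SD over 4 libraries per group), amounting on the log2 scale to -0.37 (edgeR adjusted p 1.61e-11). COBL9, needed for root hair tip growth, fell by 0.13, and COBL1 fell by 0.46. COBL5 rose by 0.29. COBL2 and COBL8 rose by 0.19 and 0.12, each with overlapping groups. With upper-quartile scaling or library size alone, 2 COBRA-like genes rose in place of 3. CESA9 and CESA10, the remaining CESA genes, reached at most 0.41 and 0.24 CPM in any library and did not pass the count filter.

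Proteins that work with the complex were represented by 7 tested genes, of which 4 rose, 2 fell and 1 did not pass, with a median log2 fold change of 0.10. CSI1, which links the complex to microtubules, rose by 0.10 (edgeR adjusted p 3.04e-08), from 256 ± 4.54 to 275 ± 3.48 CPM (SD, n = 4 each). Its relative CSI3 rose by 0.24, and CSI2, at 1.74 CPM in DMSO and 1.89 CPM in MBZ, did not pass (edgeR adjusted p 0.406). The chitinase-like genes CTL1 and CTL2, required for cellulose deposition in primary and secondary walls respectively, fell, with log2 fold changes of -0.10 and -0.15. TED6 and TED7, which encode membrane proteins of differentiating vessels, rose by 0.10 and 0.39. A further 6 loci of this list had no matching symbol in the gene table and were not analysed here.

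Cellulose synthase-like D genes, which make a related glucan in tip-growing and dividing cells, were divided: of 5 tested, 1 rose and 2 fell. CSLD2 rose by 0.14, CSLD5 fell by 0.23 and CSLD3, a root hair gene, fell by 0.06 with overlapping groups. CSLD1 and CSLD6, both below 1 CPM, did not pass. Sucrose synthases and cytosolic invertases, which supply the UDP-glucose substrate or its precursors, included SUS4, which had the largest rise among the pathway lists. SUS4 rose from 13.9 ± 0.766 to 58.3 ± 1.63 CPM (mean ± SD over 4 libraries per group), amounting on the log2 scale to 2.08 (SE 0.04, adjusted p 2.00e-68 by edgeR), while SUS1 fell from 117 ± 1.12 to 69.2 ± 1.70 CPM, amounting on the log2 scale to -0.76 (SE 0.02, adjusted p 2.49e-50 by edgeR). SUS6 and CINV1 rose by 0.20 and 0.07, SUS3 fell by 0.10, and the other 3 of the 8 tested did not pass.

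Among 21 tested NAC, MYB and homeobox regulators of secondary walls, 5 rose, 7 fell and 9 did not pass, with a median of -0.08. Over all genes tested 32.9% rose and 33.6% fell, so the part of the regulators that fell was near that of all genes. MYB46, a master switch downstream of the NAC factors, was at 4.998, 4.66, 5.20 and 5.34 CPM in DMSO and at 3.19, 3.55, 3.28 and 3.26 CPM in MBZ. All MBZ libraries were below DMSO, with a log2 change of -0.60 (SE 0.09, adjusted p 3.48e-09 by edgeR). Its close relative MYB83 fell by 0.49 with overlapping groups (edgeR adjusted p 0.00490), SND3 fell by 0.33 and KNAT7 fell by 0.27. The vessel regulator VND7 did not pass (log2 fold change -0.03, edgeR adjusted p 0.773), VND6 fell by 0.36 and VND1 rose by 0.50. VND6 and VND1 each lost significance when single libraries were left out: VND6 without DMSO replicate 1 (-0.33), DMSO replicate 3 (-0.28), MBZ replicate 3 (-0.26) or MBZ replicate 4 (-0.32), and VND1 without MBZ replicate 3 (0.34). VNI2, a repressor of VND7, rose from 157 ± 4.69 to 202 ± 1.75 CPM (SD, n = 4 each), and MYB69 rose by 0.57. NST1, NST2 and SND1, regulators best known from fibres, did not pass the count filter.

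Of 15 xylan and other secondary wall genes, 10 fell, 1 rose and 4 did not pass, with a median of -0.18. IRX7, a glycosyltransferase of xylan synthesis, fell from 141 ± 1.56 to 88.6 ± 1.47 CPM, amounting on the log2 scale to -0.67 (SE 0.02, adjusted p 8.23e-49 by edgeR). MAP70-5, a microtubule-associated protein gene of developing vessels, fell by 0.78, and FLA12, a fasciclin-like arabinogalactan protein gene, fell by 0.59. IRX8 and IRX9, both xylan genes, each fell by 0.18, and LAC17, a laccase of lignin polymerisation, fell by 0.26. IRX10 and LAC4 did not pass (0.04 and -0.05; edgeR adjusted p 0.335 and 0.134). LAC4 passed as lower with upper-quartile scaling (-0.08, edgeR adjusted p 0.0183) and with library size alone (-0.07, edgeR adjusted p 0.0461), and also without DMSO replicate 2 (-0.08) or DMSO replicate 4 (-0.07). The single rise, of IRX14 (0.07, edgeR adjusted p 0.0142), a xylan gene, was lost in 8 of 20 alternatives, where 0 genes of the list rose. Both of these scalings and the fit without DMSO replicate 3 were among them. The 10 of 15 that fell stand beside 33.6% of all genes tested.

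**Figure D4:**
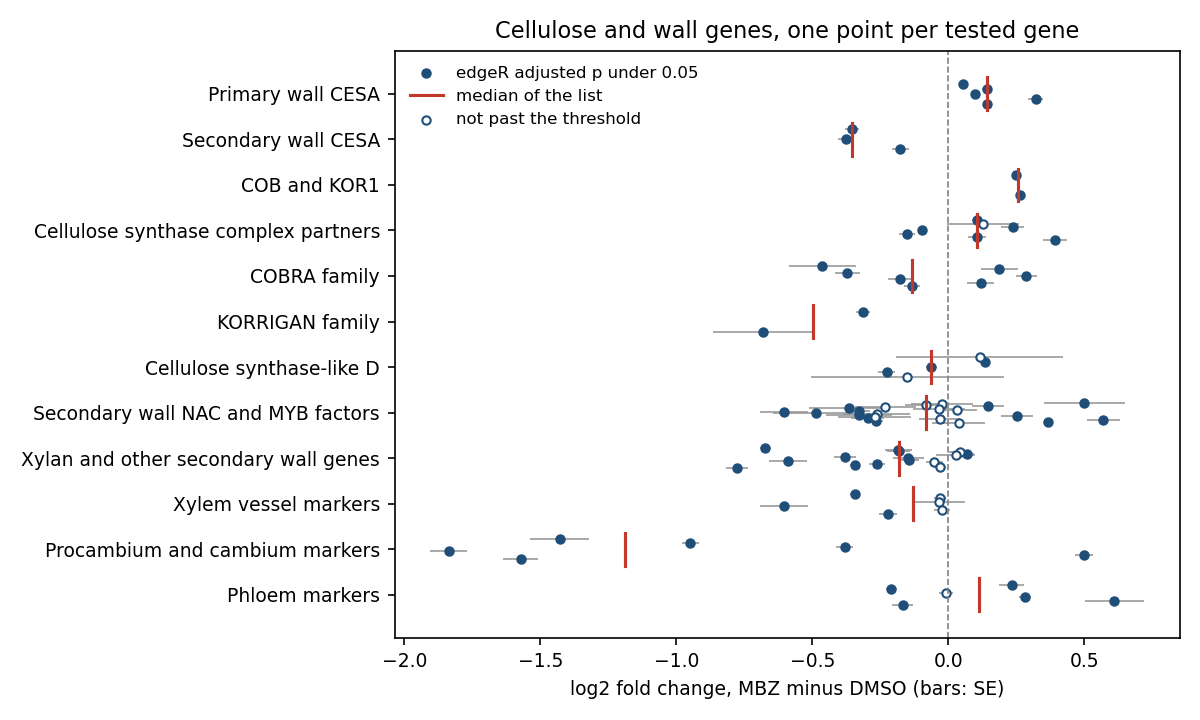
Log2 fold changes (MBZ minus DMSO, bars for the SE) of every tested gene in the lists shown (sucrose, root and green tissue lists are not drawn), filled where the edgeR adjusted p was under 0.05 and open otherwise, with a red mark at the median of the list. Primary wall CESA, COB and KOR1 lie right of 0, secondary wall CESA and KORRIGAN relatives lie left of it, and of these lists the cambium markers reach farthest left, to -1.84.

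Markers of vascular cell types did not all move in the direction of the secondary wall genes. Over all genes tested, 33.6% fell and 32.9% rose. Of 6 xylem vessel markers, 4 of which also belong to the lists above, 3 fell and 3 did not pass. Their summed level went from between 348 and 355 CPM in DMSO to between 309 and 313.5 CPM in MBZ, and none was at 0. XCP1, a vessel protease gene, fell by 0.34, MYB46 fell as above and RNS3, a nuclease gene, fell by 0.22. XCP2 and MC9, proteases of dying vessels, and VND7 did not pass, at -0.03, -0.02 and -0.03. XCP2 passed as lower with upper-quartile scaling (-0.06, edgeR adjusted p 0.00962) and with library size alone (-0.05, edgeR adjusted p 0.0402), so that 4 of the 6 fell under each. Of 6 procambium and cambium markers, 5 fell and 1 rose, and their sum went from between 177 and 181 CPM to between 126.5 and 131 CPM. The log2 fold changes were -1.84 for ANT, -1.57 for LBD4, -1.43 for WOX4, -0.95 for PXY, -0.38 for ATHB8 and 0.50 for SMXL5. Of 6 phloem markers, 3 rose, 2 fell and SEOR1 did not pass (-0.01), with sums of between 333 and 349.7 CPM in DMSO and between 333 and 353 CPM in MBZ. The log2 fold changes were 0.61 for NAC86, 0.28 for SEOR2, 0.23 for APL, -0.21 for SUC2 and -0.17 for CALS7. The part of these cell types in the fall of CESA4, CESA7 and CESA8 was not tested.

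Root and shoot markers also changed. Log2 fold changes were -0.71 for PYK10, -0.53 for WER, -0.11 for SHR, 0.54 for EXPA7, a root hair expansin gene, and 0.23 for SCR. CASP1 fell by 0.05 with overlapping groups. CASP1 lost significance without DMSO replicate 1 or 2 or MBZ replicate 1 or 4, with log2 fold changes between -0.05 and -0.04. Of the 6 green tissue markers, 5 fell. The largest falls were those of LHCB2.2, from between 29 and 66 counts per library in DMSO to between 0 and 4 in MBZ (-4.71), and RBCS3B, from between 52 and 68 to between 2 and 6 counts (-3.65). RBCS1A, GAPA and PSAD-1 fell less, with log2 fold changes of -0.58, -0.39 and -0.22. RCA did not pass (-0.05), but passed as lower with upper-quartile scaling (-0.08, edgeR adjusted p 0.0377). The part of these markers in the members' changes was not tested.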

How the data were processed

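Root RNA of 8 libraries was sequenced after extraction with a commercial kit and Illumina library preparation, per the labels. The authors deposited raw read counts per gene for 33602 genes and RPKM values for 17872 of them; the submitters' processing notes name STAR 2.7.0a, edgeR 3.36.0 and build TAIR10, without roles. Counting program, annotation and strand setting are not given in the sources used here. Samples were grouped by title, and 0 columns were left out. The table columns of the MBZ samples are named for DMSO and 4 h and do not mention the drug; they match the sample descriptions, so that the drug assignment rests on the titles and treatment labels. Within groups, 12 library pairs differed by more than sampling noise (chi-square per degree of freedom from 1.6 to 2.4), so all were kept.

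Differences were tested on all 8 libraries by the quasi-likelihood F-test of edgeR (version 4.0.16 under R 4.3.3) with TMM factors, filterByExpr and group as the single factor; p-values were adjusted by Benjamini-Hochberg over 20867 genes. SE is the log2 fold change divided by the root of F. CPM was TMM-scaled. Alternatives used DESeq2 1.42.0 and limma 3.58.1; code was tested on simulated data. The floor of 3 counts covers counting error only.

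The members, the pathway and marker lists and the motifs were chosen with earlier results of these data known. Named were all 10 members, all tested genes of lists with 6 or fewer, in larger lists up to 6 genes past the threshold changed by 0.5 or more on the log2 scale, and the 5 genes most alike each wall class. The complex partners, COBL1, COBL2, COBL4, COBL5, COBL8 and COBL9 were named after their values were seen. So were SUS3, SUS6, CINV1, VND6, MYB83, SND3, KNAT7, VNI2, IRX8, IRX9, IRX10, IRX14, LAC4 and LAC17. The same holds for genes overlapping members and genes below the count filter. Left out were 6 listed loci of complex partners without a matching symbol in the gene table.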

Additional observations from a re-analysis of the deposited data

Results flagged for a closer look

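Within each group of 4 libraries, the gap of the most distant library to its nearest neighbour was divided by the range of the group and compared with Dixon's 95% critical value for 4 samples. Of 162 groups examined for 81 measures, 5 stood out, or 3.09%, where chance gives about 5%. CESA6 was the single member among them: in MBZ, replicate 2 was at 359 CPM against 362 to 363 CPM in the others (ratio 0.855), above all DMSO libraries. SUS4 in DMSO had a high replicate 4 (15.0 against 13.4 to 13.6 CPM, ratio 0.891). IRX9 in DMSO had a low replicate 1 (20.7 against 22.4 to 22.7 CPM, ratio 0.871). XCP2 in MBZ had a high replicate 2 (114.7 against 110.0 to 110.4 CPM, ratio 0.905). PSAD-1 in DMSO had a high replicate 2 (19.7 against 18.8 to 18.9 CPM, ratio 0.937).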

How the results depend on the processing

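Over 20 alternatives, all 10 members kept their direction. The difference of -0.50 between the class medians stayed between -0.50 and -0.47. Upper-quartile factors gave class medians of 0.11 for the primary and -0.38 for the secondary wall genes and shifted the median of all genes by -0.03. The primary median was 0.12 with library size alone and 0.12 with limma on log2(RPKM + 1), on log2(RPKM + 0.1), and when genes averaging under 1 RPKM were dropped. Calls depended on the assumed spread and size. Against a 1.5-fold change 2564 genes passed (1244 higher, 1320 lower) in place of 13877 (6863 and 7014), with 0 members, 0 primary and 0 secondary wall genes. An assumed biological coefficient of variation of 0.1 with the likelihood-ratio test, where edgeR estimated 1.91%, gave 7613 genes (3508 higher, 4105 lower) and 5 members: CESA5 (1 of the primary wall genes), CESA4, CESA7, COB and KOR1. In the same fits, xylan and other secondary wall genes that fell numbered 2 and 6 in place of 10, regulators 0 and 5 in place of 7, and cambium markers 4 and 5 of 5. Other scalings raised such counts: with upper-quartile factors 12 xylan and other secondary wall genes and 10 regulators fell, and with library size alone 12 and 9. The test against a 1.5-fold change and the test with the assumed variation of 0.1 ask more of a gene by construction.

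Leaving out each library in turn kept all 10 member calls, with between 13356 and 13596 genes called. Genes that never passed changed sign there: CSLD1 ran from -0.12 to 0.53, SEOR1 from -0.037 to 0.010, CSLD6 from -0.331 to 0.064 and VND7 from -0.091 to 0.0098. Equal replicate numbers showed no pairing, with correlations of deviations from -0.0180 to 0.00407 over 4 pairs, and 0 of 8 samples correlated best with their own number. With the replicate block 13786 genes passed, all 10 members among them, and the difference was -0.50. Depth did not limit the members, but CSLD1 and CSLD6, under 1 CPM, and the MBZ values of LHCB2.2 rest on few reads.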

Other observations

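The genes whose profile over the 8 libraries came closest to the mean of CESA4, CESA7 and CESA8 were AT3G56760, pPLAIIIbeta, PBG1, HDR and XIK, with root mean square differences in log2 CPM of 0.0143 to 0.0190 after each gene was set to its DMSO mean. For the mean of the primary wall CESA genes they were AT2G47960, XEG113, RAB8C, AT5G05200 and SNRK2.4, at 0.00883 to 0.0115. Within a difference of 0.05 lay 412 of 18922 genes for the secondary and 1385 of 18920 genes for the primary wall profile, so many genes shared each pattern.

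The 3 secondary wall genes did not keep their proportions. CESA8 took 23.7% ± 0.547 of their summed RPKM in DMSO and 26.1% ± 0.302 in MBZ (SD, n = 4 each), with no overlap, and CESA7 took 31.0% ± 0.451 and 29.8% ± 0.280. For CESA4, at 45.3% and 44.1%, the groups overlapped.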
